A study of Mus musculus with 2 samples.

Results

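The genes described here are 36 interferon-stimulated genes of the mouse, read across every marker-defined cell class of the hippocampus. They were taken by symbol from the 53717 features of the deposited gene lists, and each symbol was found there. By role, 16 are antiviral effectors, 3 belong to the ISG15 pathway, 4 are transcription regulators, 4 sense nucleic acids, 4 are membrane proteins and 5 are interferon-induced GTPases. Single-cell RNA was measured in 2 libraries, 1 per group, prepared from hippocampi of the 5xFAD strain, a transgenic model of amyloid plaque formation, so the transgenes are common to both groups. The NeuroD1 library is from mice given AAV9-GFAP::NeuroD1-P2A-GFP, a viral vector whose GFAP promoter, active mainly in astrocytes, drives the proneural transcription factor NeuroD1 and GFP. The GFP library is from mice given AAV9-GFAP::GFP, the same vector type with GFP alone. According to the series text, each group had 3 mice, and tissue was taken 3 weeks after injection, and the labels record a time of 6 months for both groups. Whether the 3 mice of a group were pooled into its library is not stated.

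Interferons are secreted in response to viral or self nucleic acids. Type I interferons bind the IFNAR receptor and activate a complex that includes STAT2 and IRF9 and binds the interferon-stimulated response element in target promoters. Interferon gamma, the type II interferon, binds the IFNGR receptor and acts on gamma-activated sites. In the brain, microglia, astrocytes and endothelial cells all respond to interferons, and interferon-stimulated genes are known to be raised in microglia around amyloid plaques.

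Of the 36 genes, 29 had a promoter in the RefSeq promoter table (mouse build GRCm38.p6, which is not the mm39 build of the deposited files). The promoters shown are those of genes on which the comparisons below turn: 4 with low NeuroD1 over GFP ratios in astrocytes (Isg15, Ifit1, Ifit3 and Ifit3b), and Gbp3 and Gbp7, whose ratios in microglia lay on the other side of 1. Each line gives the 250 bases before the annotated start, 5′ to 3′ on the gene's own strand, and capitals mark matches, on either strand, to the core of the interferon-stimulated response element, GAAA followed by any 2 bases and GAAA again. The windows lie at chr4:156200819-156201068 (minus strand) for Isg15, chr19:34640639-34640888 for Ifit1, chr19:34583279-34583528 for Ifit3, chr19:34607707-34607956 for Ifit3b, chr3:142559794-142560043 for Gbp3 and chr3:142530086-142530335 for Gbp7, the last 5 on the plus strand.
Isg15: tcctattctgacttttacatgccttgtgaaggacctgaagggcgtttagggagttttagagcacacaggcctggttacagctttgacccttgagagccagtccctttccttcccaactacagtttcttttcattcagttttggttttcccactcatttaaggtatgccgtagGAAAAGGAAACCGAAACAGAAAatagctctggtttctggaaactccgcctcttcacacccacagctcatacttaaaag
Ifit1: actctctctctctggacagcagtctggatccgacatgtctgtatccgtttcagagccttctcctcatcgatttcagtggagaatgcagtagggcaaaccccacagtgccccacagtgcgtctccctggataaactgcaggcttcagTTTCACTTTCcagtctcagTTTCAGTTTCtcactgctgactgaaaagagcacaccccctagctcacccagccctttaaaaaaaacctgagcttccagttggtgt
Ifit3: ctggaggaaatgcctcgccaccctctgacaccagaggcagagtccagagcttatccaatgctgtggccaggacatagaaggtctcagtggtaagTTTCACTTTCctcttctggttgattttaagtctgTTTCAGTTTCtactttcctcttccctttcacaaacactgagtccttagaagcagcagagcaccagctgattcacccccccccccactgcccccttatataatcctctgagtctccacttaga
Ifit3b: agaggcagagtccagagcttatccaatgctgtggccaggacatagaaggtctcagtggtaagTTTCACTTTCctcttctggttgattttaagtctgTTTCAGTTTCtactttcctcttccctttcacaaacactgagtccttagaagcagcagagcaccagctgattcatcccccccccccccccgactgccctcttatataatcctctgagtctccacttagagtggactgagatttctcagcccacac
Gbp3: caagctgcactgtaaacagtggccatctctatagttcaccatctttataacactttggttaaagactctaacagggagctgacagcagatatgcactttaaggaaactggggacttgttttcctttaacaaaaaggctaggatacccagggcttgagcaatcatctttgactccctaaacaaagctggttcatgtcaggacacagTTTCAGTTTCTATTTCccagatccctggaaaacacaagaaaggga
Gbp7: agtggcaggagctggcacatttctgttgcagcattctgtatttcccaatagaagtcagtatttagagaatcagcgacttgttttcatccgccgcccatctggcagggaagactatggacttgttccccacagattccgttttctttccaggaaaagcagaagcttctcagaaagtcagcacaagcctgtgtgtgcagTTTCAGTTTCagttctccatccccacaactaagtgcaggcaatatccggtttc
The matches began at positions -78, -72 and -66 in Isg15, -104 and -85 in Ifit1, -156 and -122 in Ifit3, -188 and -154 in Ifit3b, -45 and -39 in Gbp3 and -53 in Gbp7, counted from the start; the window of a further annotated start of Gbp3 held 0 matches. Those of Isg15 overlap each other, as do those of Gbp3. Over 300-base windows from 250 bases before to 50 bases after each start, 16 of the 29 genes held the motif in at least 1 window, or 17 of their 34 windows, against 1131 of all 32851 windows (3.44%). All 5 GTPases held it, as did 5 of 14 antiviral effectors. Each sequence printed above is a window that held it. The windows of Oasl2, Irf7 and Xaf1, also lower in NeuroD1-library astrocyte-like cells, held 0 matches. The gamma-activated site TTCNNNGAA, which reads the same on both strands, was in 7 of the 34 windows (20.6%) and in 2726 of all windows (8.30%). A match describes the sequence and says nothing of binding.

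The NeuroD1 library held 13402 barcodes with 51236521 UMIs and the GFP library 11739 barcodes with 17504950 UMIs. Filters left 12786 NeuroD1 cells with a median of 2556 UMIs and 11079 GFP cells with a median of 1168 UMIs. A UMI marks 1 captured RNA molecule, and CPM below are counts per 1e6 UMIs of all cells of that class in that library. The libraries are called NeuroD1 and GFP beside their values. With 1 library per group there is no replicate and no test: intervals are 95% intervals that cover counting error only, and the vector cannot be told apart from any other difference between the mice or preparations. The libraries differed in more than the vector. Xist, transcribed from inactive X chromosomes, stood at 0.0413 CPM in NeuroD1 and 103 CPM in GFP, and Ddx3y of the Y chromosome at 69.5 CPM in NeuroD1 and 0.0618 CPM in GFP. By these values the NeuroD1 library came from male and the GFP library from female mice, so sex cannot be told apart from the vector. Ttr RNA of the choroid plexus was at 129613 CPM in NeuroD1 and 22433 CPM in GFP, and haemoglobin genes made up 0.461% of UMIs in NeuroD1 and 0.00108% in GFP. Mitochondrial genes held 3.07% of UMIs in NeuroD1 and 4.31% in GFP, and ribosomal protein genes 2.13% in NeuroD1 and 5.02% in GFP. Vector GFP was at 12.9 CPM in NeuroD1 and 1563 CPM in GFP, the ND1 feature, listed beside it, was at 0 UMIs in each, and Neurod1 itself was at 7.57 CPM in NeuroD1 and 5.25 CPM in GFP, so ND1 gives no check of the vector label. The libraries shared 99 cell barcodes.

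Summed over all cells, the 36 genes held 70040 UMIs (1445 CPM) in the NeuroD1 library, against 44555 UMIs (2753 CPM) in the GFP library. This sum uses every gene with no minimum count. Among the 9 classes with at least 100 cells in each library, a choice made after the counts were seen, the endothelial-like class had the highest sum in both libraries, 6144 CPM (interval 6081 to 6207) in the NeuroD1 library, against 7696 CPM (7547 to 7846) in the GFP library. Border macrophage or monocyte-like cells followed with 4503 CPM in NeuroD1 and 6938 CPM in GFP, then pericyte-like cells with 3846 CPM in NeuroD1 and 5053 CPM in GFP. Neuron-like cells had the lowest sum, 272 CPM in NeuroD1 and 541 CPM in GFP. The order between these ends differed by library. In the GFP library it ran microglia-like (2986 CPM), astrocyte-like (2054), smooth muscle-like (1801), choroid plexus-like (1502) and oligodendrocyte-like (1044), with no overlap between neighbouring intervals. In the NeuroD1 library it ran smooth muscle-like (1153 CPM), microglia-like (1134), choroid plexus-like (857), astrocyte-like (351) and oligodendrocyte-like (334); the intervals of smooth muscle and microglia overlapped, and so did those of astrocytes and oligodendrocytes.

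**Figure D1:**
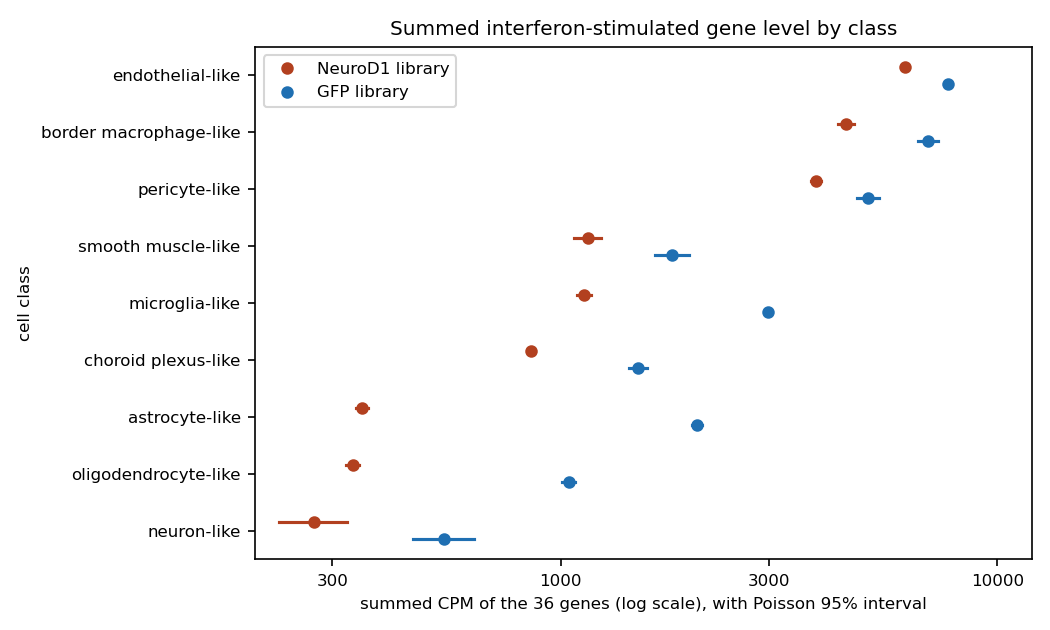
Summed CPM of the 36 genes (log axis) in the 9 classes with at least 100 cells per library, NeuroD1 library above GFP library in each class. Points are sums and bars their Poisson 95% intervals; the point of the NeuroD1 library lies left of that of the GFP library in every class drawn, by 5.85-fold in astrocyte-like and 1.25-fold in endothelial-like cells.

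Gene by gene, the class with the highest CPM among these 9 was mostly the same in the 2 libraries. Endothelial-like cells were highest for 26 genes in the NeuroD1 library, against 23 in the GFP library, and border macrophage or monocyte-like cells for 8 in NeuroD1 and 9 in GFP. Slfn2, which keeps T cells and monocytes quiescent, was at 557 CPM in NeuroD1 and 678 CPM in GFP there, and Ifi27l2a at 527 CPM in NeuroD1 and 1207 CPM in GFP. Ifi27, a small hydrophobic membrane protein, had its highest level in choroid plexus-like cells, 521 CPM in NeuroD1 and 902 CPM in GFP. Herc6, the mouse ligase that attaches ISG15 to proteins, was among these 9 classes the only gene with its highest level in astrocyte-like cells, 14.6 CPM in NeuroD1 and 35.6 CPM in GFP, where the interval overlapped that of endothelial-like cells in the NeuroD1 library. Pericyte-like cells were highest for Ifitm3 and Parp14 in the GFP library alone. T or NK lymphocyte-like cells, outside the 9, stood above them for some genes, such as Sp100 in both libraries.

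**Figure D2:**
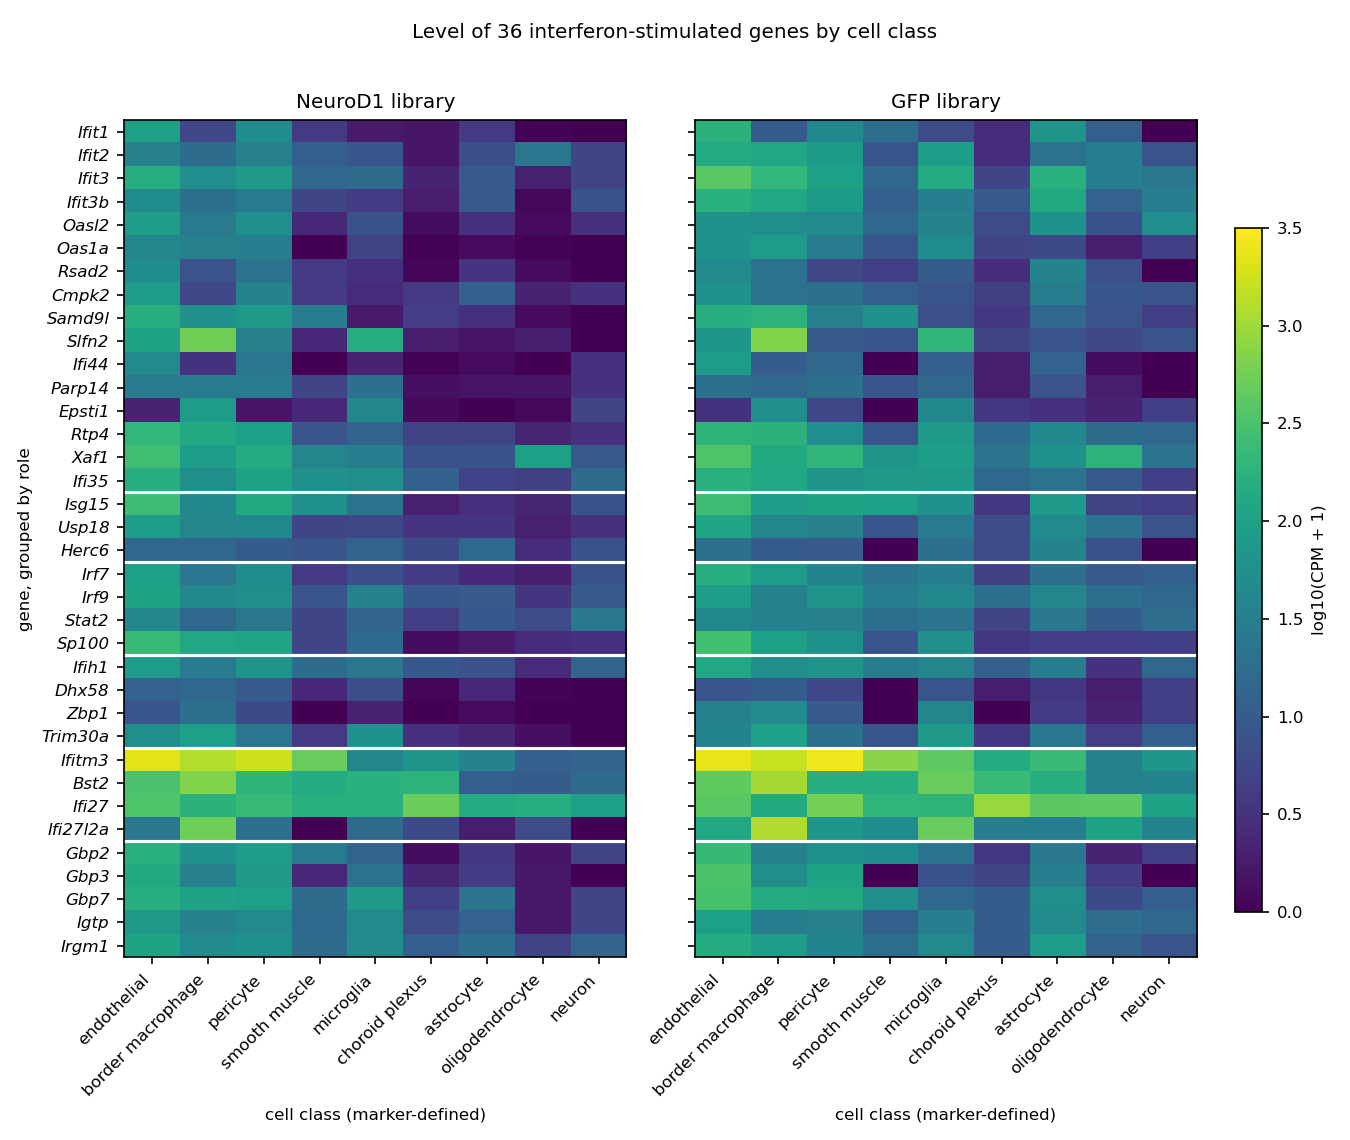
Level of each gene, as log10(CPM + 1) by colour, in the 9 classes, NeuroD1 library left and GFP library right, genes in rows by role. The endothelial column is bright in both panels (summed CPM 6144 in NeuroD1, 7696 in GFP), and the astrocyte column is darker in the NeuroD1 panel (351, against 2054 in GFP).

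Astrocytes, the cells in which the GFAP promoter is chiefly active, had the largest difference between the libraries among these 9 classes. The 36 genes summed to 351 CPM (interval 341 to 362) over 3662 astrocyte-like cells of the NeuroD1 library, against 2054 CPM (2003 to 2106) over 2161 cells of the GFP library, 5.85-fold lower (5.62 to 6.08). Of the 32 genes with at least 20 UMIs over both libraries, 31 were at least 2-fold lower in the NeuroD1 library and 0 at least 2-fold higher; of all 13300 genes with that minimum in the class, 11.6% were at least 2-fold lower and 3.71% higher. Their median log2 ratio was -3.21, against -0.16 over all genes. In 6 of the 32, the minimum was reached only in the GFP library, so these had to be lower. Among the 25 with at least 20 UMIs in each library, 25 were at least 2-fold lower. The shares of all genes use the minimum over both libraries. For the stricter minimum in each library no such share is given, for this or any other class or list. Oas1a, Epsti1, Sp100 and Zbp1 did not reach the minimum.

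The antiviral effectors, which bind viral RNA or otherwise limit virus replication, summed to 59.8 CPM in the NeuroD1 library, against 677 CPM in the GFP library of astrocyte-like cells, and 14 of 14 counted genes were at least 2-fold lower. Ifit3 had 103 UMIs (8.78 CPM) in NeuroD1 and 495 UMIs (168 CPM) in GFP, 19.1-fold lower (15.4 to 23.9). Its near copy Ifit3b was at 8.35 CPM in NeuroD1 and 134 CPM in GFP, and of the last stretch of Ifit3 transcripts 18.0% of 50-base windows also occur in Ifit3b, so the split between the 2 is uncertain. Ifit1 was at 2.90 CPM in NeuroD1 and 64.1 CPM in GFP, and Oasl2, of the oligoadenylate synthetase family, at 2.13 CPM in NeuroD1 and 61.0 CPM in GFP. The ratio was lowest, by the interval end nearest 1, for Isg15, the ubiquitin-like modifier, with 23 UMIs (1.96 CPM) in the NeuroD1 library and 221 UMIs (74.9 CPM) in the GFP library, 38.2-fold lower (24.8 to 61.5). Usp18, which removes ISG15 from proteins and dampens the type I receptor, was at 2.39 CPM in NeuroD1 and 44.4 CPM in GFP. Cmpk2, a mitochondrial nucleotide kinase, had a smaller difference, 2.62-fold lower (1.97 to 3.47). Xaf1, a proapoptotic protein, was 9.14-fold lower (6.91 to 12.2), within the middle range of the effectors.

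By role, the median log2 ratio was -4.20 for the ISG15 pathway, -3.44 for effectors, -3.40 for membrane proteins, -2.23 for GTPases, -2.17 for sensors and -2.07 for transcription regulators. Irf9 and Stat2, 2 parts of the type I signalling complex, were at 9.21 CPM in NeuroD1 and 38.6 CPM in GFP and at 8.18 CPM in NeuroD1 and 24.1 CPM in GFP, whereas Irf7, which amplifies type I interferon production, was at 1.45 CPM in NeuroD1 and 18.6 CPM in GFP, 12.9-fold lower (7.36 to 23.6). Among the membrane proteins, Bst2, which tethers budding virus to the cell surface, was 16.1-fold lower (10.1 CPM in NeuroD1 and 162 CPM in GFP) and Ifitm3, which blocks virus entry from endosomes, 6.89-fold lower (34.2 CPM in NeuroD1 and 236 CPM in GFP). Ifi27 was 2.93-fold lower (142 CPM in NeuroD1 and 416 CPM in GFP). The GTPases, which attack vacuoles of intracellular pathogens and respond strongly to interferon gamma, summed to 56.4 CPM in NeuroD1 and 236 CPM in GFP, with Irgm1 at 17.8 CPM in NeuroD1 and 83.4 CPM in GFP and Igtp at 11.7 CPM in NeuroD1 and 45.8 CPM in GFP. Gbp7 and Herc6 had 2 of the smallest differences, 2.49-fold lower (2.02 to 3.06) and 2.44-fold lower (1.90 to 3.13). The gene not past 2-fold was Dhx58, an RNA sensor, with 17 UMIs in NeuroD1 and 8 UMIs in GFP and a ratio of 0.534 (0.219 to 1.43).

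**Figure D3:**
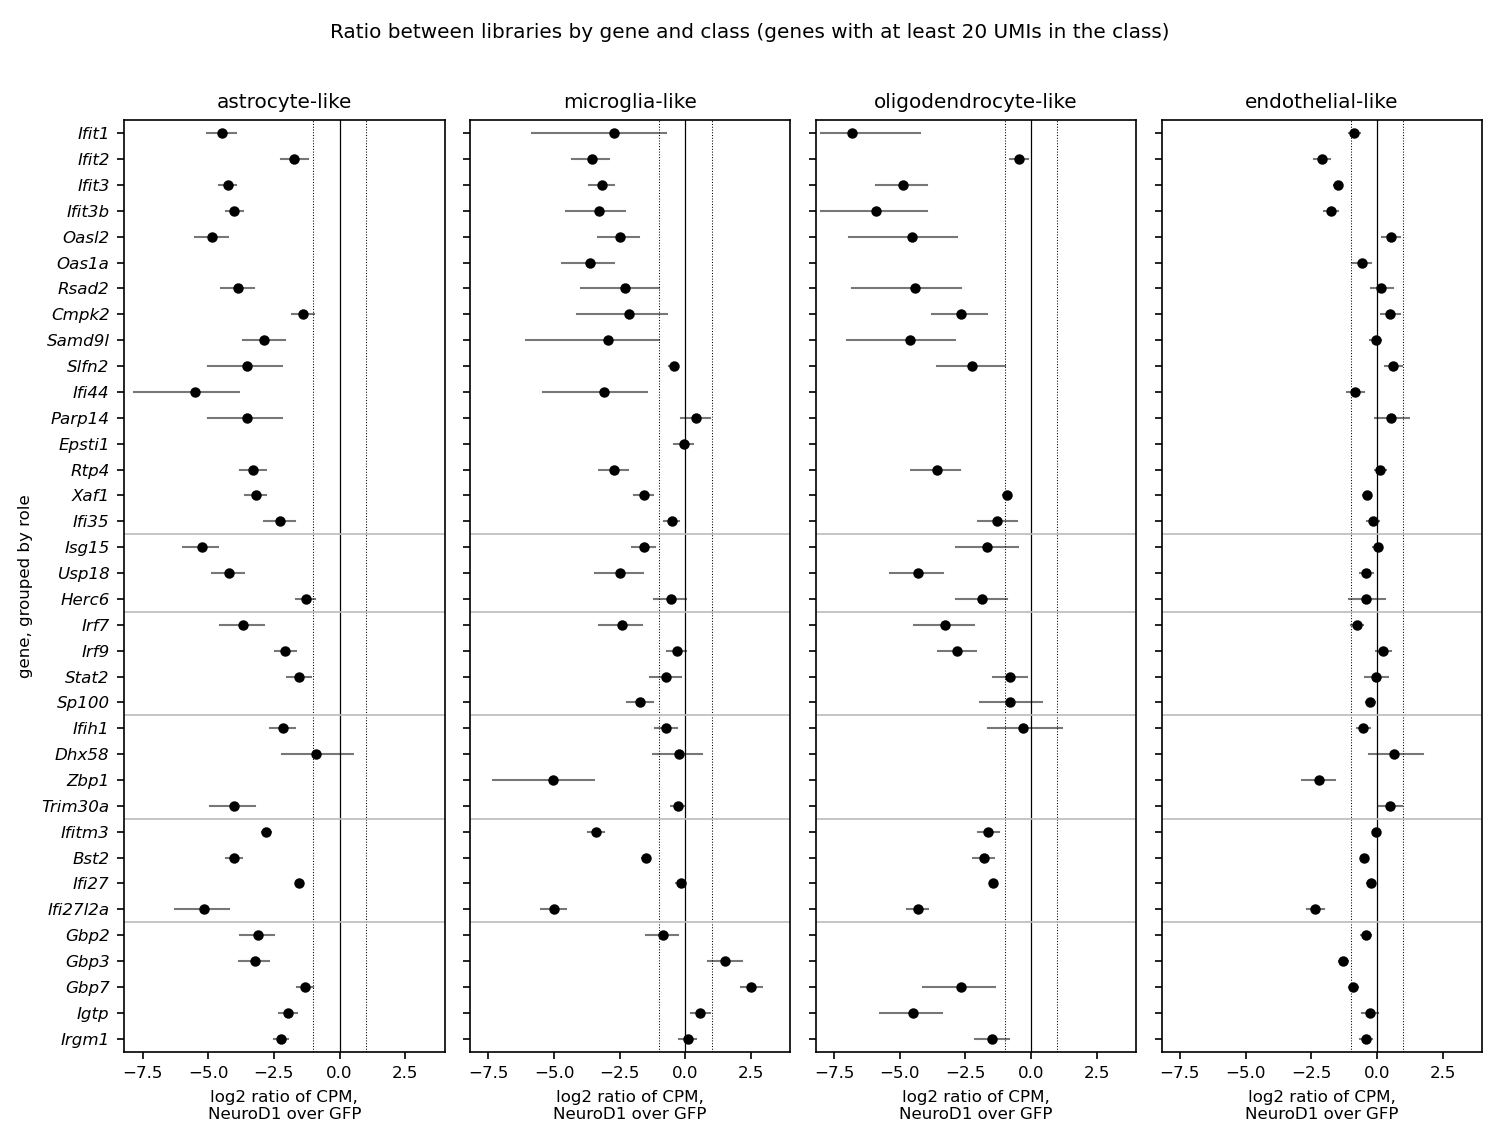
log2 ratio of CPM, NeuroD1 over GFP, for each gene with at least 20 UMIs in astrocyte-like, microglia-like, oligodendrocyte-like and endothelial-like cells. Points are ratios and bars their exact 95% counting intervals, with the left end drawn no lower than -8 and dotted lines at 2-fold; astrocyte points centre on -3.21 and endothelial points on -0.36, and Gbp3 and Gbp7 lie right of 0 in microglia.

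Different clusters held most of the astrocyte-like cells in the 2 libraries, so each cluster was also read alone. In cluster 2, led by vector GFP, Aldoc and Mt3, the summed level was 391 CPM in 1089 NeuroD1-library cells and 2106 CPM in 1269 GFP-library cells, and 25 of 28 counted genes were at least 2-fold lower, against 7.39% of all genes. In cluster 9 it was 346 CPM in 139 NeuroD1 cells and 2072 CPM in 837 GFP cells, and 26 of 29 were lower, against 9.91%. In cluster 3, led by Aldoc and Cxcl14, it was 331 CPM in 2186 NeuroD1 cells and 1257 CPM in 55 GFP cells, and 16 of 21 were lower, against 17.9%, with a median of -2.16 against -0.15 over all genes. Cluster 16, led by Gal, Sct and Gfap, held 248 cells of the NeuroD1 library (446 CPM) and 0 of the GFP library. The sum was thus lower in the NeuroD1 library in each of the 3 clusters that both libraries fill.

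Markers of other cells moved with this result. The 12 microglia markers summed to 177 CPM in NeuroD1-library astrocytes, against 1282 CPM in GFP-library astrocytes, where microglia-like cells numbered 1224 in NeuroD1 and 3615 in GFP. If these markers came along with whole microglial RNA, the GFP-library astrocytes would carry 3.53% of the microglial level, or 105 of their 2054 CPM for the 36 genes together, 4.91 of 168 CPM for Ifit3 and 2.22 of 74.9 CPM for Isg15, but 16.9 of 30.5 CPM for Ifi27l2a and 6.97 of 6.78 CPM for Slfn2. Free RNA in the suspension, scaled by the Ttr found in astrocyte-like cells (10475 CPM in NeuroD1 and 2189 CPM in GFP), was exceeded by 20 of the 32 counted genes in the NeuroD1 library, against 30 in the GFP library. Slfn2 and Ifi27l2a exceeded it in neither library. Among the genes not above it in NeuroD1-library astrocytes were Isg15, Xaf1, Ifitm3 and Bst2, so those values are not separable from the estimate. With the estimate subtracted, the median was -4.38.

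Vector GFP did not separate high from low cells in the same way within a library. Among NeuroD1-library astrocytes, the 223 cells with a GFP UMI had 448 CPM (411 to 487) of the 36 genes and the 3439 without had 340.2 CPM (329 to 352). In the GFP library, the 1358 cells with a GFP UMI had 1959.8 CPM (1898 to 2023) and the 803 without had 2235 CPM (2144 to 2329). Ifit3 in the GFP library was at 170.1 CPM in cells with a GFP UMI, against 163 CPM in cells without, with overlapping intervals. Cells with a GFP UMI had more UMIs, with medians of 5207 against 2340 in the NeuroD1 library, and 1224 against 1016 within the GFP library, so a cell without one is not shown to lack the vector.

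In microglia, the resident macrophages of the brain, most of the counted genes past 2-fold were lower in the NeuroD1 library, and both of those higher were GTPases. The summed level was 1134 CPM (1093 to 1176) over 1224 NeuroD1 microglia-like cells and 2986 CPM (2941 to 3032) over 3615 GFP cells, 2.63-fold lower (2.53 to 2.74). All 36 genes reached 20 UMIs, and 20 were at least 2-fold lower and 2 at least 2-fold higher, against 9.67% and 17.2% of 11650 genes of the class. The median log2 ratio was -1.58, against 0.35 over all genes. In 13 genes only the GFP library reached 20 UMIs; of the 23 that did so in both, 8 were at least 2-fold lower and 2 at least 2-fold higher.

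Ifi27l2a, a relative of Ifi27, had 38 UMIs (15.04 CPM) in the NeuroD1 library, against 2633 UMIs (478 CPM) in the GFP library, 31.8-fold lower (23.1 to 44.995). Ifitm3 was at 40.0 CPM in NeuroD1 and 421 CPM in GFP, 10.5-fold lower, and Bst2 at 172 CPM in NeuroD1 and 489 CPM in GFP, 2.84-fold lower. The NeuroD1 value of Ifitm3 was not above the free RNA estimate. Ifit3 was at 15.4 CPM in NeuroD1 and 139 CPM in GFP and Ifit2 at 7.52 CPM in NeuroD1 and 88.7 CPM in GFP. Zbp1, which senses left-handed nucleic acid and triggers necroptosis, had 3 UMIs in NeuroD1 and 216 UMIs in GFP, and Oas1a 10 UMIs in NeuroD1 and 268 UMIs in GFP, though 64.1% of the windows at the end of Oas1a also occur in Oas1g. Several genes lay close to 1. Slfn2 was at 146 CPM in NeuroD1 and 197 CPM in GFP (ratio 0.738, 0.654 to 0.831), Ifi27 at 166 CPM in NeuroD1 and 187 CPM in GFP (0.887, 0.790 to 0.994), and Epsti1 at 40.4 CPM in NeuroD1 and 42.3 CPM in GFP (0.955, 0.749 to 1.21).

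The 5 GTPases summed to 201 CPM in microglia-like cells of the NeuroD1 library, against 116 CPM in those of the GFP library. Of the 5, 2 were at least 2-fold higher and 0 lower, against 17.2% and 9.67% of all genes of the class. With 5 genes such counts are not told apart from those shares. The median log2 ratio was 0.57, against 0.35 over all genes of the class. Gbp7, a guanylate-binding protein, had 196 UMIs (77.6 CPM) in NeuroD1 and 75 UMIs (13.6 CPM) in GFP, 5.70-fold higher in the NeuroD1 library (4.35 to 7.54). Gbp3 was at 19.0 CPM in NeuroD1 and 6.71 CPM in GFP, 2.83-fold higher (1.80 to 4.47), and Igtp at 44.7 CPM in NeuroD1 and 30.1 CPM in GFP, a ratio of 1.48 (1.16 to 1.90). Irgm1 was at 47.5 CPM in NeuroD1 and 44.3 CPM in GFP, with an interval that included 1 (0.855 to 1.34), and Gbp2 was lower, at 11.9 CPM in NeuroD1 and 21.4 CPM in GFP. Over clusters with at least 50 cells in each library, however, the log2 ratio was 0.97 for Gbp7 and 0.11 for Gbp3, so neither passed 2-fold there.

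The clusters were filled very unequally. Cluster 1, led by Cd14, Cst7, Cd83 and Il1b, genes of activated and plaque-associated microglia, held 10 cells of the NeuroD1 library, against 2832 of the GFP library, where its summed level was 3067 CPM. Cluster 6, led by Tmem119 and P2ry12, genes of resting microglia, had 1216 CPM in 580 NeuroD1-library cells and 2580 CPM in 730 GFP-library cells, with 16 of 29 counted genes at least 2-fold lower (6.16% of all genes) and a median of -1.15 against 0.19. Cluster 11, led by the chemokines Ccl4 and Ccl3, had 1104 CPM in 634 NeuroD1 cells and 2021 CPM in 53 GFP cells, with 9 of 22 lower (11.4% of all genes) and a median of -0.58 against -0.0012. Other lists differed in this class too, where the median over all genes was 0.35. At least 2-fold higher in the NeuroD1 library were 15 of 23 immediate early genes (median 1.32), against 17.2% of all genes of the class. At least 2-fold lower were 56 of 86 ribosomal protein genes (median -1.18), against 9.67%. The part of these lists in the differences was not tested.

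Oligodendrocytes, the myelin-forming cells, had low levels in both libraries and lower ones in the NeuroD1 library. The sum was 334 CPM (323 to 345) over 3156 NeuroD1 oligodendrocyte-like cells and 1044 CPM (1009.9 to 1079.99) over 2276 GFP cells, 3.13-fold lower (2.98 to 3.28). Of 27 genes with at least 20 UMIs, 22 were at least 2-fold lower and 0 higher, against 7.77% and 4.12% of 12169 genes, and the median was -2.63 against 0.03. For 12 of the 27 only the GFP library reached 20 UMIs, so these had to be at least 2-fold lower. Ifit3, Igtp and Ifit1, given below, were among them. Of the 10 genes that reached 20 UMIs in both libraries, 7 were at least 2-fold lower. Ifi27 was at 153 CPM in NeuroD1 and 424 CPM in GFP, 2.76-fold lower (2.57 to 2.97), and Ifi27l2a at 5.42 CPM in NeuroD1 and 108 CPM in GFP, 19.9-fold lower (15.0045 to 26.8). Ifit3 had 11 UMIs in NeuroD1 and 101 UMIs in GFP, 29.3-fold lower (15.7 to 60.6), and Igtp 8 UMIs in NeuroD1 and 56 UMIs in GFP, 22.4-fold lower (10.6 to 54.3). Ifit1 had 1 UMI in NeuroD1 and 35 UMIs in GFP, a ratio of 0.00895 (0.000220 to 0.0532). Xaf1 and Ifit2 stood apart from the other effectors: Xaf1 had 1023 UMIs (97.2 CPM) in NeuroD1 and 603 UMIs (183 CPM) in GFP, 1.88-fold lower, and Ifit2 241 UMIs (22.9 CPM) in NeuroD1 and 105 UMIs (31.9 CPM) in GFP, 1.39-fold lower (1.10 to 1.76).

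As in astrocytes, different clusters held the oligodendrocytes of the 2 libraries. Cluster 0, with Mag and Mobp among its leading genes, had 331 CPM in 3010 NeuroD1-library cells and 1022 CPM in 196 GFP-library cells, with 9 of 13 genes at least 2-fold lower, against 10.7% of all genes. Cluster 4, led by Ermn, had 509.6 CPM in 146 NeuroD1 cells and 1048 CPM in 2080 GFP cells. There the median was -0.95, against 0.07 over all genes, with 9 of 19 genes at least 2-fold lower, against 11.1%. The interferon-stimulated genes summed to 104 UMIs in NeuroD1 and 3028 UMIs in GFP in this cluster. Most of the 19 therefore did not reach 20 UMIs in the NeuroD1 library. Microglia markers summed to 132 CPM in NeuroD1 and 1016 CPM in GFP among oligodendrocyte-like cells, which would carry 83.5 of the 1044 CPM in the GFP library and 13.4 of 108 CPM of Ifi27l2a. Free RNA was exceeded by 10 of the 27 genes in the NeuroD1 library, against 20 in the GFP library, and by Slfn2, Isg15, Sp100, Ifih1, Ifitm3 and Gbp7 in neither. Ifit1, Ifit3, Igtp and Samd9l exceeded it in the GFP library alone, so their NeuroD1 values are not separable from the estimate.

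Endothelial cells, which line the vessels and meet interferons in the blood, had high levels in both libraries. The sum in the NeuroD1 library was 0.798 times that in the GFP library (0.781 to 0.816), with 2046 NeuroD1 and 1033 GFP cells. Different clusters held most of these cells too. Cluster 5, led by Ly6c1 and Cxcl12, had 6117 CPM in 1673 NeuroD1 cells and 8479 CPM in 124 GFP cells. Cluster 8, led by Cldn5 and Itm2a, had 4937 CPM in 222 NeuroD1 cells and 7468 CPM in 896 GFP cells. Cluster 20, led by Lrg1 and Ackr1, had 6609.6 CPM in 151 NeuroD1 cells and 9433 CPM in 13 GFP cells, so within each cluster the NeuroD1 sum was further below the GFP sum than over the class. Of 35 genes with at least 20 UMIs, 6 were at least 2-fold lower and 0 higher, against 5.91% and 8.54% of 11716 genes, and the median was -0.36 against 0.14. In cluster 5 alone 9 of 35 genes were lower (10.4% of all genes), with a median of -0.42 against 0.05, and in cluster 8 alone 11 of 33 (10.7%), with a median of -0.51 against -0.08. Ifitm3 had 13826 UMIs (2294 CPM) in NeuroD1 and 3146 UMIs (2368 CPM) in GFP, a ratio of 0.969 (0.932 to 1.01). Isg15, 38.2-fold lower in astrocyte-like cells, was at 259 CPM in NeuroD1 and 254 CPM in GFP here, a ratio of 1.02 (0.906 to 1.15). Rtp4, a chaperone-like protein, Irf9 and Stat2 also had intervals that included 1, while Bst2 was at 310.4 CPM in NeuroD1 and 434 CPM in GFP (0.715, 0.651 to 0.786).

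The 6 genes past 2-fold in endothelial-like cells were Ifit2 (32.5 CPM in NeuroD1 and 138 CPM in GFP), Ifit3 (144 CPM in NeuroD1 and 402 CPM in GFP), Ifit3b (48.8 CPM in NeuroD1 and 164 CPM in GFP), Zbp1 (7.30 CPM in NeuroD1 and 33.9 CPM in GFP), Ifi27l2a (24.1 CPM in NeuroD1 and 122 CPM in GFP) and Gbp3 (132 CPM in NeuroD1 and 321 CPM in GFP). Ifi27l2a had the lowest ratio, 0.197 (0.157 to 0.248). The highest ratios by their nearer interval end were those of Slfn2 (1.54, 1.23 to 1.93), Oasl2 (1.44, 1.14 to 1.84) and Cmpk2 (1.43, 1.12 to 1.84). The Ifit family thus differed within itself by ratio, from 0.235 for Ifit2 to 0.553 for Ifit1. In every gene counted the level was above the free RNA estimate in both libraries. Microglia markers were at 184 CPM in NeuroD1 and 1218 CPM in GFP among these cells, and their part in the lower genes was not tested.

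In pericyte-like cells, which wrap capillaries, the result depended on the cluster. The sum was 3846 CPM over 748 NeuroD1 cells and 5053 CPM over 285 GFP cells, while the median over 32 genes was 0.22, with 4 at least 2-fold lower and 3 higher, against 7.50% and 14.8% of 8969 genes. In 24 of the 32 genes only the NeuroD1 library reached 20 UMIs. Cluster 10, led by Vtn and Kcnj8, had 1891 CPM in 564 NeuroD1-library cells and 4615 CPM in 270 GFP-library cells, and the median in it was -1.31, against 0.03 over all genes. Cluster 18, led by Rgs5 and Higd1b, had 5250 CPM in 184 NeuroD1 cells and 7085 CPM in 15 GFP cells, with endothelial markers at 18692 CPM in NeuroD1 and 14170 CPM in GFP, against 1158 CPM in NeuroD1 and 848 CPM in GFP for cluster 10. Pericyte markers were at 15919 CPM in NeuroD1 and 11227 CPM in GFP in cluster 18, against 50218 CPM in NeuroD1 and 45526 CPM in GFP in cluster 10, and cluster 18 held 4888 of the class's 6152 NeuroD1 UMIs of the 36 genes. The part of endothelial RNA in these values was not tested. Ifitm3 was at 1698 CPM in NeuroD1 and 2665 CPM in GFP over the class (0.637, 0.582 to 0.698), Ifi27 at 225 CPM in NeuroD1 and 582 CPM in GFP, Bst2 at 188 CPM in NeuroD1 and 152 CPM in GFP and Xaf1 at 140.0 CPM in NeuroD1 and 199 CPM in GFP. Ifi27l2a was at 18.1 CPM in NeuroD1 and 69.3 CPM in GFP, and Samd9l, an antiviral translation repressor, had a ratio of 2.42 (1.14 to 6.13), which was on the other side of 1 in cluster 10 (log2 ratio -0.32).

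In border macrophage or monocyte-like cells, cluster 14, 9 of 27 genes were at least 2-fold lower and 0 higher (7.33% and 7.82% of 4541 genes), with a median of -0.67; of the 13 that reached 20 UMIs in both libraries, 4 were lower. Ifitm3 was at 1233 CPM in NeuroD1 and 1589 CPM in GFP, Bst2 at 679 CPM in NeuroD1 and 1083 CPM in GFP and Ifi27l2a 2.29-fold lower (1.91 to 2.75). Ifit2 had the lowest ratio, 0.135 (0.0493 to 0.321), on 7 UMIs in NeuroD1 and 25 UMIs in GFP. S100a8 led this cluster, and neutrophil markers summed to 8516 CPM in NeuroD1 and 7344 CPM in GFP within it. In T or NK lymphocyte-like cells, 59 in NeuroD1 and 124 in GFP, 8 of 18 genes were at least 2-fold lower and 0 higher (8.22% and 15.5% of 2020 genes). Only the GFP library reached 20 UMIs in 7 of the 18 and neither did alone in 5; of the 6 that reached it in both, 1 was at least 2-fold lower. Ifi27l2a was at 355 CPM in NeuroD1 and 1278 CPM in GFP there and Ifit3 at 63.7 CPM in NeuroD1 and 535 CPM in GFP, whereas Slfn2 was at 609.7 CPM in NeuroD1 and 379.7 CPM in GFP (1.61, 1.09 to 2.37) and Sp100, of the nuclear bodies, at 455 CPM in NeuroD1 and 434 CPM in GFP.

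In choroid plexus-like cells, which secrete cerebrospinal fluid, 10 of 22 genes were at least 2-fold lower and 0 higher, against 16.5% and 4.03% of 11843 genes, and the median was -0.86 against -0.36. Ifi27 had 6692 UMIs (521 CPM) in NeuroD1 and 1015 UMIs (902 CPM) in GFP, Bst2 was at 180.1 CPM in NeuroD1 and 238 CPM in GFP, Ifitm3 at 62.9 CPM in NeuroD1 and 143 CPM in GFP, and Ifit3b had the lowest ratio, 0.0963 (0.0371 to 0.253). Only the NeuroD1 library reached 20 UMIs in 13 of the 22; of the 6 that did so in both, 4 were at least 2-fold lower. Ttr is a marker of these cells, so the free RNA estimate taken from it carries no information about them. Smooth muscle-like cells had 2 of 9 genes at least 2-fold lower and 0 higher (6.02% and 8.20% of 6231 genes), with Ifitm3 at 486 CPM in NeuroD1 and 758 CPM in GFP. Fibroblast-like cells had 3 of 10 lower and 1 higher (9.96% and 18.2% of 3596 genes), the higher one being Gbp2 with 38 UMIs in NeuroD1 and 1 UMI in GFP (ratio 5.50, 0.929 to 223). In neuron-like cells 1 of 2 genes was lower and 0 higher (17.7% and 19.6% of 6905 genes). These were Ifi27, at 93.7 CPM in NeuroD1 and 106 CPM in GFP (0.888, 0.547 to 1.46), and Ifitm3, at 13.1 CPM in NeuroD1 and 68.1 CPM in GFP. Different clusters held most neuron-like cells of the 2 libraries. Cluster 17, led by Ndnf and Gap43, had 285 CPM in 167 NeuroD1 cells and 497 CPM in 73 GFP cells. Cluster 23, led by Thy1 and Syt1, had 173 CPM in 7 NeuroD1 cells and 559 CPM in 124 GFP cells. In cluster 17 alone 0 of 1 counted gene passed 2-fold, against 7.73% lower and 11.6% higher of 4956 genes.

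The immature neuron-like cluster was not compared as it stands, because it also held cycling cells, with microglia markers at 8309 CPM in NeuroD1 and 19564 CPM in GFP. At a finer clustering it had 131 NeuroD1 and 38 GFP cells, and the 36 genes summed to 286 CPM (237 to 342) in the NeuroD1 library, against 663 CPM (472 to 907) in the GFP library, with microglia markers at 137 CPM in NeuroD1 and 1139.8 CPM in GFP. Oligodendrocyte precursor-like cells (108 in NeuroD1 and 32 in GFP) summed to 755 CPM in NeuroD1 and 1518 CPM in GFP. The 1 gene that reached 20 UMIs there, Ifi27, was at 477 CPM in NeuroD1 and 659 CPM in GFP (0.724, 0.497 to 1.08), so 0 genes passed 2-fold, against 7.42% lower and 14.4% higher of 4473 genes. Ependymal-like cells (36 in NeuroD1 and 7 in GFP) summed to 2119 CPM in NeuroD1 and 1439 CPM in GFP. Of the 4 genes counted, 0 were at least 2-fold lower and 3 at least 2-fold higher, against 21.2% and 21.0% of 2614 genes. These 3 were Ifit3 and Bst2, at 0 UMIs in GFP, and Ifi27, at 1 UMI in GFP, and each interval included 1.

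To count cells rather than molecules, each cell was thinned to 500 UMIs, since the libraries differ in depth. At that depth 15.2% (14.0 to 16.4) of astrocyte-like cells in the NeuroD1 library and 45.2% (43.1 to 47.3) in the GFP library had at least 1 UMI of the 36 genes; with all UMIs the shares were 51.1% in NeuroD1 and 66.5% in GFP. In microglia-like cells the thinned shares were 37.99% in NeuroD1 and 64.5% in GFP. They were 15.2% in NeuroD1 and 32.6% in GFP for oligodendrocyte-like cells, and 90.0% in NeuroD1 and 93.4% in GFP for endothelial-like cells. Neuron-like cells, with the lowest levels and mostly from different clusters in the 2 libraries, had 9.77% (5.80 to 15.2) in NeuroD1 and 21.3% (15.8 to 27.7) in GFP. Their median depths were 2239 UMIs in NeuroD1 and 1201 UMIs in GFP, and those of astrocyte-like cells 2463 UMIs in NeuroD1 and 1148 UMIs in GFP. The astrocyte share overlapped the neuron interval in the NeuroD1 library and exceeded it in the GFP library. Cells with at least 5 such UMIs were 3 of 3662 (0.0819%) in NeuroD1 and 88 of 2161 (4.07%) in GFP among astrocyte-like cells, and 8 of 1224 (0.654%) in NeuroD1 and 248 of 3615 (6.86%) in GFP among microglia-like cells. The 5% of GFP-library astrocytes with the most UMIs of these genes held 39.8% of them. The variance of the count per cell was 4.31 times its mean, against 1.72 in the NeuroD1 library and 1 for counts spread evenly. This measure also rises with the mean count, which was lower in the NeuroD1 library. The 2 values therefore do not show in which library the genes were spread more evenly.

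**Figure D4:**
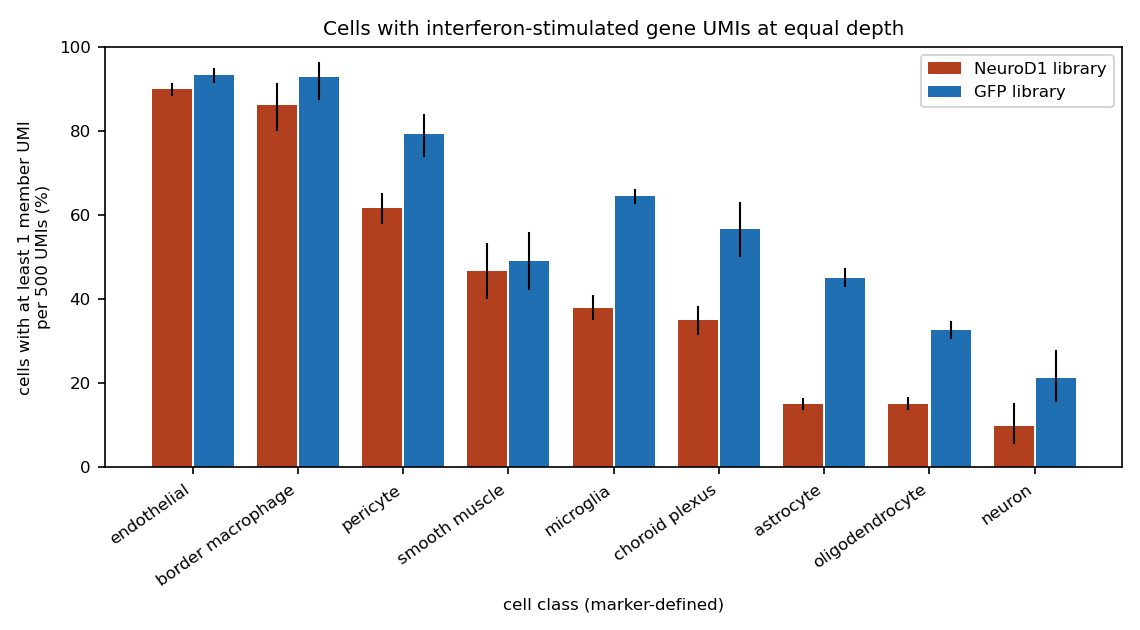
Share of cells with at least 1 UMI of the 36 genes after thinning each cell to 500 UMIs, by class, NeuroD1 library left of GFP library. Bars start at 0 and lines are Clopper-Pearson 95% intervals; astrocyte-like cells stand at 15.2% in NeuroD1 and 45.2% in GFP, endothelial-like cells at 90.0% in NeuroD1 and 93.4% in GFP.

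The effector genes were found together in the same cells. Among GFP-library astrocytes, 60 of the 120 cells with an Ifit3 UMI (interval 40.7 to 59.3%) had a UMI of another effector or ISG15 pathway gene, against 13.4% (11.97 to 14.98) of the 2041 without. In the NeuroD1 library the shares were 42.9% of 14 cells and 3.02% of 3648 cells. In GFP-library microglia they were 57.2% of 194 cells and 25.8% of 3421 cells, and in endothelial-like cells 76.9% against 49.5% in the NeuroD1 library and 73.5% against 51.4% in the GFP library. GTPase UMIs followed the same split in GFP-library astrocytes, with 34.2% and 7.45%. Cells of a library share its handling, so these shares describe the cells and test nothing.

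The ligands themselves were scarce. Of 21 interferon genes in the files, Ifng, encoding interferon gamma, had 32 UMIs in the NeuroD1 library, against 88 in the GFP library, of which 32 in NeuroD1 and 82 in GFP lay in T or NK lymphocyte-like cells (291 CPM in NeuroD1 and 635 CPM in GFP, ratio 0.458, 0.295 to 0.697). Ifnb1, encoding interferon beta, had 1 UMI in NeuroD1 and 15 UMIs in GFP, of which 1 in NeuroD1 and 12 in GFP lay in microglia-like cells, and Ifnk had 0 in NeuroD1 and 3 in GFP. The remaining 18 had 0 UMIs in both libraries, which allows up to 3 UMIs each at this depth.

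The receptors of both interferon types were detected. In astrocyte-like cells 0 of 5 counted receptor genes passed 2-fold in either direction, against 11.6% lower and 3.71% higher of all genes. With 5 genes such a count is near those shares. The receptor median was -0.09, against -0.16 over all genes. Ifnar1 was at 36.3 CPM in NeuroD1 and 32.9 CPM in GFP. Ifnar2, just short of 2-fold, was at 17.8 CPM in NeuroD1 and 35.3 CPM in GFP (0.505, 0.397 to 0.646). In microglia-like cells Ifngr1 was at 609 CPM in NeuroD1 and 246 CPM in GFP, 2.48 times as high in the NeuroD1 library. In astrocyte-like cells the kinase Jak1 was at 152 CPM in NeuroD1 and 175 CPM in GFP. In the list of signal transduction genes, 6 of 14 were at least 2-fold lower and 0 higher in astrocyte-like cells (11.6% and 3.71% of all genes), and 1 of 15 lower and 5 higher in microglia-like cells (9.67% and 17.2%), among them Irf8 at 374 CPM in NeuroD1 and 169 CPM in GFP. Tmem173, which encodes the DNA-sensing adaptor STING, was higher in the NeuroD1 library in both, at 30.1 CPM in NeuroD1 and 12.5 CPM in GFP among astrocyte-like cells and 351 CPM in NeuroD1 and 96.0 CPM in GFP among microglia-like cells.

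A second list of 77 other interferon-stimulated genes was counted by the same rule. At least 2-fold lower were 34 of 47 counted genes in astrocyte-like cells (median -1.85), 24 of 59 in microglia-like cells (median -0.65), 15 of 26 in oligodendrocyte-like cells (median -1.16) and 9 of 56 in endothelial-like cells (median -0.17), against 11.6%, 9.67%, 7.77% and 5.91% of all genes; at least 2-fold higher were 0, 2, 2 and 2. Only the GFP library reached 20 UMIs in 7 of the astrocyte, 18 of the microglia, 6 of the oligodendrocyte and 1 of the endothelial genes counted. Of those that reached it in both libraries, 22 of 32 were at least 2-fold lower in astrocyte-like cells, 10 of 40 in microglia-like, 5 of 12 in oligodendrocyte-like and 5 of 44 in endothelial-like cells. Those that reached 20 UMIs in the GFP library alone had to be lower, except in microglia-like cells. Cxcl10, the chemokine that draws T cells through CXCR3, had 26 UMIs in NeuroD1 and 349 UMIs in GFP among astrocyte-like cells, 53.4-fold lower (35.8 to 82.9). Lgals3bp, a secreted glycoprotein, had 77.1 CPM in NeuroD1 and 393 CPM in GFP among astrocyte-like and 149.6 CPM in NeuroD1 and 683 CPM in GFP among microglia-like cells. Ly6e, a surface protein, had 105 CPM in NeuroD1 and 108 CPM in GFP among astrocyte-like cells, and Ly6a, a marker of brain endothelium, had 5477 CPM in NeuroD1 and 3924 CPM in GFP among endothelial-like cells.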

How the data were processed

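The deposited matrices hold UMI counts, whole numbers per gene and barcode, and were made by the authors with FastQC, fastp, cutadapt, STAR and featureCounts on build mm39, per the submitters' processing notes; versions, roles and annotation are not given in the sources used here. Per the labels' protocols, papain-dissociated cells were caught in microwells of a SCOPE-chip and their mRNA on magnetic beads, whereas the description field names 10x Genomics. The deposited barcodes start at 500 UMIs.

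A minimum of 200 genes and a maximum of 20% mitochondrial UMIs took out 131 NeuroD1 and 104 GFP barcodes. Scrublet then called 485 NeuroD1 (3.65%) and 556 GFP (4.78%) barcodes doublets, which were removed. Cells were clustered jointly on 3000 variable genes without the 36 genes and other interferon-stimulated genes, using 15 neighbours in 30 principal components and the Leiden method (resolution 1.0). A cluster was named "X-like" where at least 3 markers of a class, and more than 33.3% of its list, were among its first 100 genes and no other class had more among the first few, which gave 14 classes from 25 clusters and left 1 cluster unnamed (6 NeuroD1 and 579 GFP cells). UMIs were summed per class and library. CPM have exact Poisson intervals, ratios exact conditional binomial intervals and shares Clopper-Pearson intervals, all at 95%. Log2 ratios in medians and counts add 0.5 UMI to each sum, and genes need 20 UMIs over both sums. The share of free RNA in a class was taken from its Ttr level relative to all kept cells of that library. Shared transcript ends were sought in the given reference transcripts, which are of another build.

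All 36 genes could be named; values in full went to those with the most UMIs and the lowest and highest ratios of a class. The genes, lists and classes were chosen with earlier results of these data known. Procedures were tested on simulated counts. A few genes are not reported here. Clustering used scanpy 1.11.5 with igraph 0.11.9 and leidenalg 0.10.2, and scikit-learn 1.9.0; intervals used scipy 1.17.1; tables and plots used pandas 2.3.3, matplotlib 3.10.9 and numpy 2.4.6 under Python 3.11.15. Alternatives covered cell filters, doublets, clustering, minimum counts, scaling, depth, the weight of cells, free RNA and the fold; reading clusters alone and leaving out genes at the free RNA level were added after seeing the data.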

Additional observations from a re-analysis of the deposited data

Results flagged for a closer look

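The ratio of 3 genes pointed opposite ways in 2 classes, each with an interval that excluded 1; with 1 library per group, the difference between the classes was not tested. Gbp7, NeuroD1 over GFP, had a ratio of 5.70 for the microglia-like class, against 0.157 for the oligodendrocyte-like class, where its 8 UMIs in NeuroD1 and 16 UMIs in GFP were not above the free RNA estimate in either library. Gbp3 was 2.83 in microglia-like cells and 0.106 in astrocyte-like cells. Over microglia-like clusters with at least 50 cells of each library, the log2 ratio was 0.97 for Gbp7 and 0.11 for Gbp3. Samd9l was 2.42 in pericyte-like cells and 0.0408 in oligodendrocyte-like ones, where its NeuroD1 level was not above the free RNA estimate. Its log2 ratio was -0.32 within pericyte-like cluster 10.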

How the results depend on the processing

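The direction of the median log2 ratio of the 36 genes held under every setting tried in astrocyte-like (-4.38 to -2.16), microglia-like (-1.92 to -0.58), oligodendrocyte-like (-3.21 to -0.95), border macrophage or monocyte-like (-0.81 to -0.42), choroid plexus-like (-1.64 to -0.50) and endothelial-like cells (-0.51 to -0.20). The ends -4.38 (free RNA subtracted), -2.16 (cluster 3 alone, 16 genes at least 2-fold lower) and -0.95 (cluster 4 alone, 9 genes) lay outside the interval of the reported median. In pericyte-like cells the sign turned, to -0.58 with thinned cells (10 genes lower) and to -1.31 in clusters with at least 50 cells of each library (8 genes); 7 were lower with equal weight per cell and 0 past 4-fold. Single genes turned there too: Slfn2 at -0.80 with doublets kept, -0.11 at resolution 0.5 and -1.17 in those clusters, Rsad2 at -0.17 thinned and -3.49 in those clusters, and Samd9l at -0.32. Counts of genes at least 2-fold lower moved by over 1.5 times in the cases below. Neither these counts nor those of pericyte-like cells have the share of all genes beside them. They show how far a number moved with the setting and are not read as results about the 36 genes. In border macrophage or monocyte-like cells they were 3 with a minimum of 50 UMIs, 15 with none, 15 past 1.5-fold and 3 past 4-fold. In choroid plexus-like cells they were 20 with a minimum of 5, 6 with 50, 23 with none and 3 past 4-fold. In endothelial-like cells they were 11 past 1.5-fold, 3 past 4-fold and 11 in cluster 8 alone. They were 9 in microglia-like cluster 11, and in oligodendrocyte-like cells 11 with a minimum of 50 and 9 in cluster 0 alone. With all UMIs of each cell in place of 500, the ratio of shares of cells with a UMI was 0.768 in astrocyte-like (0.336 thinned), 0.886 in microglia-like (0.589), 1.03 in oligodendrocyte-like (0.465), 1.01 in border macrophage or monocyte-like (0.930), 1.12 in choroid plexus-like (0.618), 1.01 in endothelial-like (0.963) and 1.02 in pericyte-like cells (0.777); the deeper NeuroD1 library gives more UMIs per cell. The cause of the other moves was not tested. Free RNA was not subtracted in choroid plexus-like cells. No paired analysis was possible because each group has 1 library. Genes near 20 UMIs are limited by depth.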
